A study of Mus musculus with 4 samples.

Results

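The genes described here are 7 subunits of ion pumps of the P-type ATPase kind: the accompanying beta subunits of the sodium-potassium pump Atp1b1, Atp1b2 and Atp1b3, the calcium pump of the endoplasmic reticulum Atp2a2, and the calcium pumps of the plasma membrane Atp2b1, Atp2b2 and Atp2b4. Every probe set that the array's probe table assigns to exactly 1 of these symbols was taken, which gave 21 of the 45101 probe sets: 6 for Atp2a2, 5 for Atp1b1, 3 each for Atp2b1 and Atp2b2, 2 for Atp1b2 and 1 each for Atp1b3 and Atp2b4. The study hybridised RNA from whole left hippocampi of wild-type mice to Affymetrix arrays, 1 per sample, and the labels number the 4 samples 11, 13, 15 and 17 and call them biological replicates, so there is 1 group. No treatment, strain, age or sex is given. Values are log2 intensities, and a probe set was counted as above background when its mean exceeded 6.91, the 95th percentile of the levels of 27 genes that mark muscle, testis, pancreas and other tissues outside the brain.

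The sodium-potassium pump exchanges sodium for potassium across the plasma membrane at the cost of ATP, and in brain it restores the ion gradients that firing neurons run down. Its alpha subunit carries out transport, and its beta subunit is needed for folding and delivery of the complex to the membrane. Calcium pumps of the plasma membrane remove calcium from the cell after activity, and the pump encoded by Atp2a2 returns it to the endoplasmic reticulum. Atp1b1 is found mainly in neurons and Atp1b2, known as the adhesion molecule on glia, mainly in astrocytes. Atp2b2 is mainly neuronal, while Atp1b3, Atp2a2 and Atp2b1 are made in many cell types.

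The stretches before the transcription start are shown for the pumps whose levels were followed, since the neuronal and the broadly made genes can be set side by side there. Of the 7 genes 5 matched a RefSeq promoter entry of build GRCm38.p6, and Atp1b2 and Atp2a2 are not analysed for this. Below are the 250 bases before the start farthest upstream for the 4 matched genes that were above background, 5' to 3' on the strand of the gene. Capitals mark 4 motifs searched on both strands. The TATA box was searched by its letters TATAAA and in a variant as TATATA, the CCAAT box by the 5 letters of its name, the GC box by GGGCGG, and the core of the cyclic AMP response element by TGACG. The 3 GC boxes nearest the start of Atp2b1 overlap each other.
Atp1b1: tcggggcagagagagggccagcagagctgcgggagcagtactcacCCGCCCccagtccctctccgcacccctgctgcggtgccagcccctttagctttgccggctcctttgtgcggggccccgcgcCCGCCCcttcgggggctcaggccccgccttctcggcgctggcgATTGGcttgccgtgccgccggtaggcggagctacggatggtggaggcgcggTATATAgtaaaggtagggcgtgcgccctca
Atp1b3: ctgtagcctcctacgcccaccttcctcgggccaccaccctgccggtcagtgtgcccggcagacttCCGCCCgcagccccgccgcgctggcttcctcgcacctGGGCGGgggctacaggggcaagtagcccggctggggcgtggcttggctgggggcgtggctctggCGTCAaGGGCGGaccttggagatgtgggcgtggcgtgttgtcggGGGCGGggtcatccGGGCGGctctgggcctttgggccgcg
Atp2b1: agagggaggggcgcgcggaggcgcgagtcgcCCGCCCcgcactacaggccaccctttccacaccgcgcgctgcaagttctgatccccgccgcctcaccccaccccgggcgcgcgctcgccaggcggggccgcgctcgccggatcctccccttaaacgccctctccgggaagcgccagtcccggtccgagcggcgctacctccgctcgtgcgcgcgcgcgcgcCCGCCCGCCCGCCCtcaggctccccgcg
Atp2b2: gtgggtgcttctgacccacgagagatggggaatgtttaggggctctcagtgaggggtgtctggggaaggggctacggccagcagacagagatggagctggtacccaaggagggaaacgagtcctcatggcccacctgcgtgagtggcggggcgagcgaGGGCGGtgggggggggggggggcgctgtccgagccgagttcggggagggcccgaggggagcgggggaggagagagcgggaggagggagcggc
These windows lie on the minus strand at chr1:164458356-164458605 for Atp1b1, on the minus strand at chr9:96364432-96364681 for Atp1b3, on the plus strand at chr10:98914392-98914641 for Atp2b1 and on the minus strand at chr6:114042081-114042330 for Atp2b2. Atp1b1 was the only one of the 4 with a TATA box, at bases 30 to 25 before the start, and it also held a CCAAT box read on the other strand at bases 81 to 77 and 2 GC boxes. Among all 32851 windows of this length in the table, 15.6% held such a TATA box, 33.8% a CCAAT box, 32.7% a GC box and 17.8% the cyclic AMP core. Atp1b3 held 5 GC boxes and 1 cyclic AMP core, Atp2b1 held 4 GC boxes and Atp2b2 held 1. The 4 windows were rich in G and C, from 69.6% in Atp2b2 to 78.4% in Atp2b1, against a median of 52.4%. RefSeq lists 2 starts for Atp1b3, 2 for Atp2b1 and 3 for Atp2b2, and the values above are those of the start shown. Numbered from upstream, start 2 of Atp1b3 held 0 GC boxes and 0 cyclic AMP cores. Start 2 of Atp2b1 held 3 GC boxes, and starts 2 and 3 of Atp2b2 held 0 and 1. G and C made up 76.8% at start 2 of Atp1b3, 80.8% at start 2 of Atp2b1, and 52% and 55.6% at starts 2 and 3 of Atp2b2. A match of letters is a description and shows no binding.

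Of the 21 probe sets 16 were above background, against 23.8% of all probe sets, and they covered 6 of the 7 genes, against 38.2% of all genes by their highest probe set. The lowest of the 16 was an Atp2a2 probe set with a mean of 7.23, and the highest of the other 5, also of Atp2a2, had a mean of 5.91. Atp2b4, a calcium pump of the plasma membrane, was under background by its only probe set, at 4.12, 3.93, 3.60 and 3.84 in samples 11, 13, 15 and 17. A value under background does not show that the transcript was absent. Markers of the labelled tissue were detected: all 10 neuronal and 10 astrocyte markers, all 4 CA1 and 5 of 6 dentate granule cell markers were above background, the dentate marker Prox1 being the one under it. Of the 6 choroid plexus markers, only Ttr was above background by its mean. Ttr read 7.36, 9.84, 6.86 and 6.54 in samples 11, 13, 15 and 17, so it was far highest in sample 13. In samples 15 and 17 its values were under the background limit. The probe sets of Atp1b2 and Atp1b3 above background were also highest in sample 13. So were 1439036_a_at and 1418453_a_at of Atp1b1, 1427250_at of Atp2a2 and 1420403_at of Atp2b2. The part of choroid plexus content in their values was not tested. Probe sets differ in affinity, so levels were compared between samples and never between genes.

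**Figure D1:**
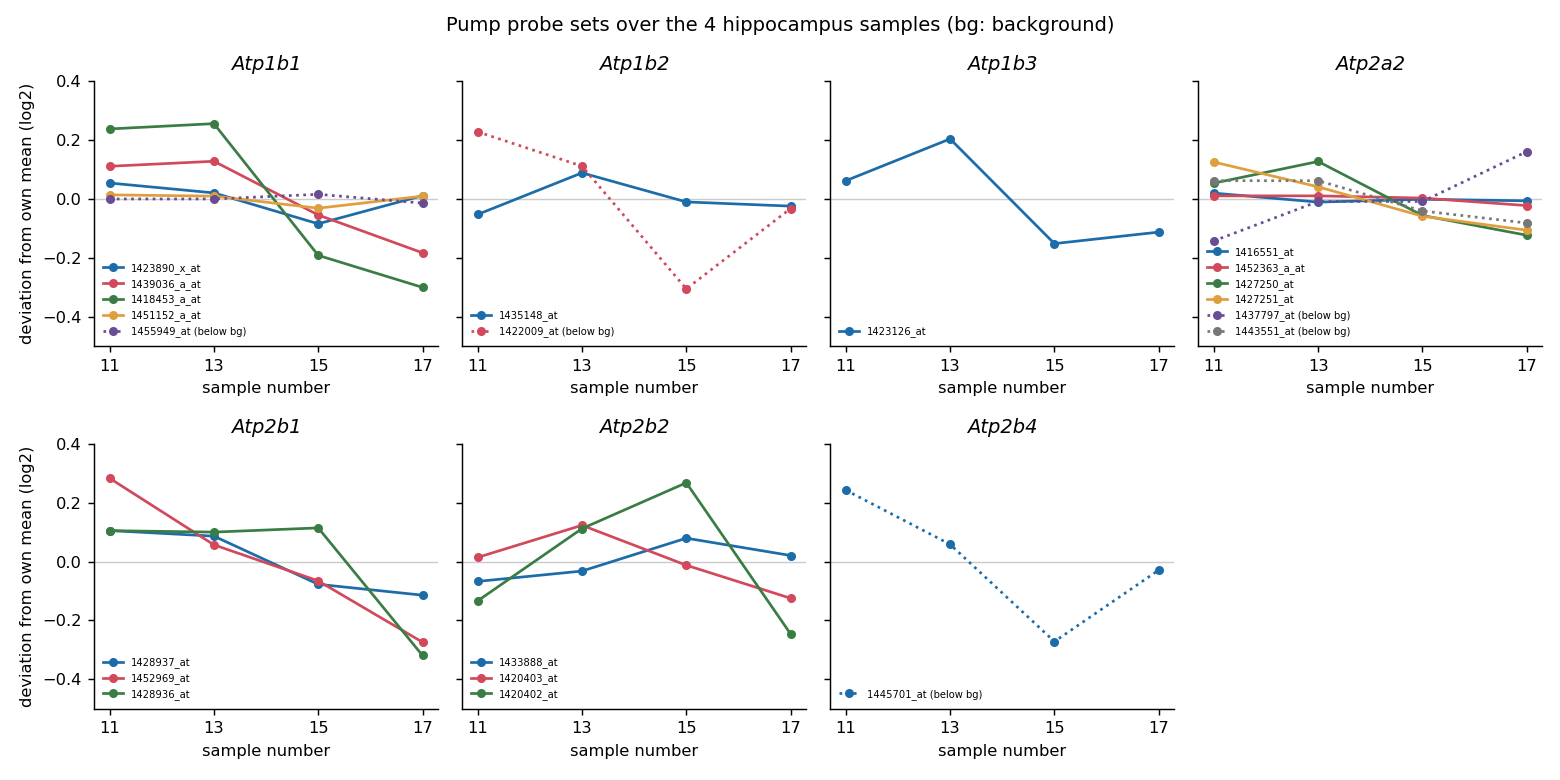
Deviation of each pump probe set from its own mean (log2) in samples 11, 13, 15 and 17, with 1 panel per gene; solid lines are probe sets above background, dotted lines those under it, and lines join the values of a probe set without implying an order of samples. Probe set 1418453_a_at of Atp1b1 and the 3 probe sets of Atp2b1 were lowest in sample 17, while the brightest probe set of Atp2a2 stayed close to 0.

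The neuronal beta subunit gave 2 kinds of signal. Probe set 1418453_a_at of Atp1b1 read 11.75, 11.77, 11.32 and 11.22 in samples 11, 13, 15 and 17, with a mean of 11.52 ± 0.29 (SD, n = 4). The values of samples 15 and 17 were thus well apart from those of samples 11 and 13, and the highest was 1.47-fold the lowest. Its SD was larger than that of 96.6% of the 10718 probe sets above background. Probe set 1439036_a_at of the same gene ran the same way with a smaller span, at 12.03, 12.05, 11.87 and 11.74 in samples 11, 13, 15 and 17. By contrast, 1451152_a_at read 11.29 in samples 11, 13 and 17 and 11.25 in sample 15, an SD below that of all but 6.27% of probe sets. Its values in samples 13 and 17 were exactly equal, which lowers an SD. The probe set with the highest mean, 1423890_x_at, had values of 12.14, 12.11, 12.003 and 12.10 (12.09 ± 0.059), a range of 0.14 that became 0.043 without sample 15. Its suffix marks probes that can also bind other transcripts. The difference between 1451152_a_at and 1418453_a_at moved by 0.56 on the log2 scale over the samples, so how far Atp1b1 varied depended on the probe set. Probe set 1455949_at was under background, between 5.41 and 5.44.

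Of 4 control transcripts read at both ends, Gapdh and beta-actin had larger differences between the ends in samples 15 and 17. Gapdh, a glycolytic enzyme, had 3' minus 5' differences of 0.62, 0.62, 2.64 and 3.79 in samples 11, 13, 15 and 17. Beta-actin gave 1.10, 1.25, 1.93 and 2.33 in the same order. Pyruvate carboxylase did not separate the samples this way, at 3.46, 3.74, 3.79 and 3.65 with its 5' probe set under background, nor did the transferrin receptor, at 0.28, 0.21, 0.21 and 0.21 with both probe sets under it. The positions of the Atp1b1 probe sets along the transcript were not used here, and the part of this difference between the arrays in the Atp1b1 values was not tested. The 10 neuronal markers, all above background, had mean deviations between -0.032 in sample 11 and 0.025 in sample 17, a range of 0.058. A mean over genes moves less than a single probe set, and the part of cell content in the values of 1418453_a_at was not tested.

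**Figure D2:**
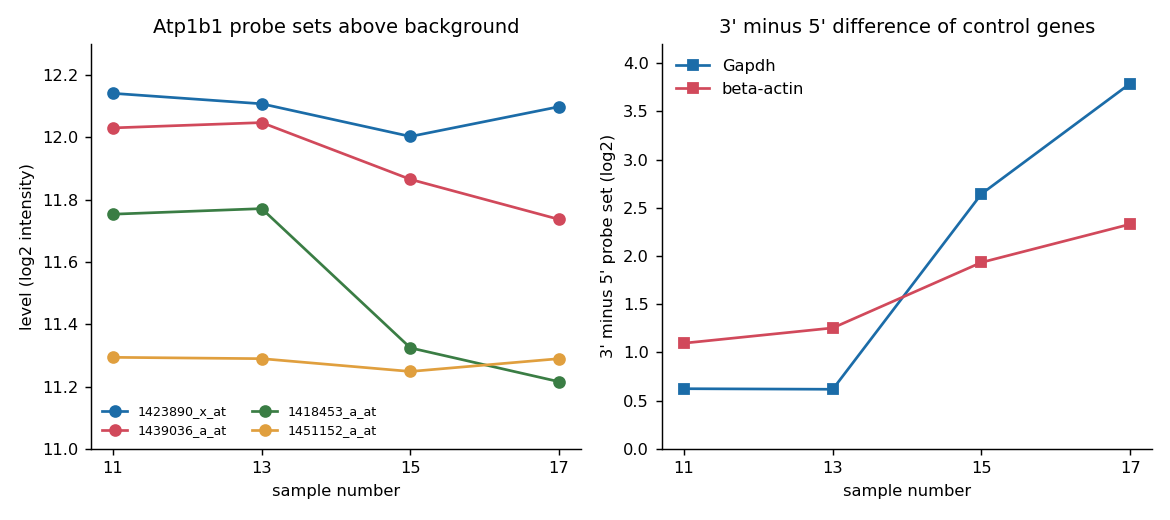
Left, level (log2 intensity) of the 4 Atp1b1 probe sets above background in each sample; right, 3' minus 5' difference (log2) of the control genes Gapdh and beta-actin in the same samples, lines only joining values of 1 series. In samples 15 and 17 probe set 1418453_a_at read 11.32 and 11.22 and the Gapdh difference stood at 2.64 and 3.79, while 1451152_a_at stayed between 11.25 and 11.29.

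The glial beta subunit spread about as much as the main Atp1b1 probe set. Atp1b2, measured above background by 1435148_at, read 10.87, 11.01, 10.91 and 10.90 in samples 11, 13, 15 and 17 (10.92 ± 0.061, n = 4). It was highest in sample 13, by 0.14 over the lowest sample, and the range was 0.042 without that sample. Its second probe set, 1422009_at, was under background at 5.45, 5.33, 4.91 and 5.19. The 10 astrocyte markers, all above background, deviated on average by -0.077, -0.016, 0.044 and 0.049 in samples 11, 13, 15 and 17. The 7 of 9 measured myelin markers above background were all highest in sample 13, with a mean deviation of 0.41 there against -0.19 in sample 11. Their part in the value of Atp1b2 in sample 13 was not tested.

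How far the glial and neuronal isoforms moved apart depended on the Atp1b1 probe set. With the main probe sets, Atp1b2 minus Atp1b1 deviated from its mean by -0.11, 0.068, 0.074 and -0.036 in samples 11, 13, 15 and 17, a range of 0.18. Against 1451152_a_at the range was 0.15, with the lowest value again in sample 11 and the highest in sample 13. Against 1439036_a_at and 1418453_a_at it was 0.32 and 0.57, and both samples 15 and 17 lay above both samples 11 and 13. For 1418453_a_at the deviations were -0.29, -0.17, 0.18 and 0.28. The balance of Atp1b2 against the neuronal calcium pump Atp2b2 deviated by 0.015, 0.12, -0.090 and -0.045 with the main probe sets, so samples 15 and 17 were there the 2 lowest. Against 1420403_at of Atp2b2 they were the 2 highest, at -0.067, -0.035, 0.002 and 0.10, and against 1420402_at sample 15 was lowest and sample 17 highest, at 0.080, -0.024, -0.28 and 0.22. No direction common to the 3 Atp2b2 probe sets was seen. With 1 array per sample these differences were not tested. In whole tissue, fewer cells of a type and less RNA per cell cannot be told apart.

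**Figure D3:**
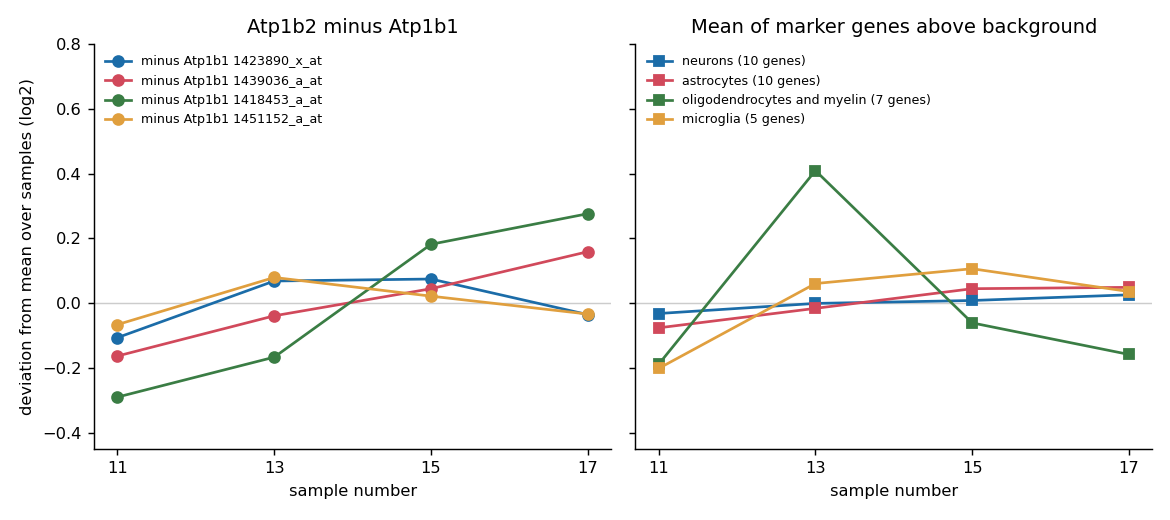
Left, Atp1b2 minus each Atp1b1 probe set above background, as the deviation from its mean over the 4 samples (log2); right, mean deviation of the marker genes above background of 4 cell types, lines only joining values of 1 series. The range on the left is 0.15 to 0.57 by probe set, and on the right the neuronal markers span 0.058 and the myelin markers 0.598.

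Atp1b3, the broadly made beta subunit, was lower in samples 15 and 17. Its only probe set, 1423126_at, read 9.60, 9.74, 9.39 and 9.43 in samples 11, 13, 15 and 17 (9.54 ± 0.16, n = 4), a 1.28-fold span. Its range of 0.36 became 0.21 without sample 13. Samples 15 and 17 did not overlap with samples 11 and 13, and the SD was larger than that of 85.5% of probe sets above background. Among the main probe sets above background of the pumps this was the largest SD, so the genes most like it were sought among 6946 others by the root mean square difference of their deviations over the 4 samples. They were Elavl4, a neuronal RNA-binding protein, at 0.018, Gna12, a G protein alpha subunit, at 0.026, and Pdcl, a phosducin-like protein, at 0.037 on the log2 scale. Elavl4 read 7.75, 7.92, 7.53 and 7.56 in samples 11, 13, 15 and 17. With 4 samples and so many genes, such likeness is a description only. Gapdh differences between the ends were larger in samples 15 and 17, at 2.64 and 3.79 against 0.62 in samples 11 and 13. Their part in the Atp1b3 values was not tested.

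Atp2a2, which fills the calcium store of the endoplasmic reticulum, was the steadiest pump by its brightest probe sets. Probe set 1416551_at read 11.69 in sample 11 and 11.66 in each of the other samples (11.67 ± 0.013, n = 4), and only 3.24% of probe sets above background had a smaller SD. Its range of 0.030 became 0.0095 without sample 11. Probe set 1452363_a_at read 10.74 in samples 11 and 13, 10.73 in sample 15 and 10.71 in sample 17. The samples were therefore within 0.033 on the log2 scale by both. The dimmer 1427250_at spread more, at 10.21, 10.29, 10.10 and 10.04, as did 1427251_at, at 7.36, 7.27, 7.17 and 7.12 in samples 11, 13, 15 and 17. Both were lower in samples 15 and 17 than in samples 11 and 13, with spans of 1.19-fold and 1.17-fold. The 2 probe sets under background, 1437797_at and 1443551_at, had means of 5.91 and 2.71.

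Atp2b1, the broadly made calcium pump of the plasma membrane, was lowest in sample 17 by all 3 probe sets. Probe set 1452969_at read 10.82, 10.59, 10.47 and 10.26 in samples 11, 13, 15 and 17 (10.54 ± 0.23, n = 4), a 1.47-fold span. The main probe set 1428937_at read 10.90, 10.88, 10.71 and 10.68 (10.79 ± 0.11). Both separated samples 15 and 17 from samples 11 and 13. Probe set 1428936_at did not: it read 10.00, 9.99, 10.00 and 9.57 in samples 11, 13, 15 and 17, so sample 17 alone was low. Averaged over the 3 probe sets, Atp2b1 deviated by 0.16, 0.081, -0.0096 and -0.24 in samples 11, 13, 15 and 17. Sample 17 was also the one with the lowest mean of CA1 markers, at -0.18, the highest of dentate markers, at 0.22, and the largest Gapdh difference; their part in the Atp2b1 values was not tested.

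Atp2b2, the neuronal calcium pump, had no order of samples common to its 3 probe sets. The main probe set 1433888_at read 9.67, 9.70, 9.82 and 9.76 in samples 11, 13, 15 and 17 (9.74 ± 0.064, n = 4), with samples 15 and 17 above the others. Probe set 1420403_at ran the other way, at 8.12, 8.23, 8.10 and 7.98. Probe set 1420402_at stood at 7.59, 7.84, 7.99 and 7.48, a 1.43-fold span in which sample 15 was highest and sample 17 lowest. The difference between 1420402_at and 1433888_at moved by 0.45 over the samples. The neuronal markers moved by 0.058 and those of CA1 pyramidal cells by 0.37, with a mean deviation of 0.19 in sample 15 and -0.18 in sample 17. The 5 dentate granule cell markers above background went the other way, at -0.10 in sample 15 and 0.22 in sample 17. The part of either in the values of 1420402_at was not tested. For the main probe set the range was 0.15, and 0.088 without sample 15.

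Lower values in samples 15 and 17 were common among the pumps. Of the 16 probe sets above background, 10 had both samples 15 and 17 below both samples 11 and 13, against 11.2% of all probe sets above background, and 1 had both above, against 30.7%. The 10 belonged to Atp1b1 and Atp2a2 with 3 each, Atp2b1 with 2, and Atp1b3 and Atp2b2 with 1 each, so probe sets of 1 gene are counted more than once. By 1 probe set a gene, 3 of 6 pumps showed it, against 7.29% of all genes above background. These counts set no smallest gap between the samples. Among the 3 was 1423890_x_at of Atp1b1, at 12.099 in sample 17 against 12.108 in sample 13. Among the 10 was 1452363_a_at of Atp2a2, at 10.735 in sample 15 against 10.742 in samples 11 and 13. Quantile normalization again left 10, against 19.8% of all probe sets, and centring each array on its median left 8, against 10.2%. Without sample 15 the count was 12, against 19.8%, and without sample 17 it was 11, against 21.4%. This pattern was picked after the values were seen, it has no test, and the Gapdh difference between the arrays moved with it; its part in the pattern was not tested.

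The spread of each probe set was tested against that usual at its brightness. By limma, 0 of the 16 passed at an adjusted p of 0.05, against 0% of 10718 probe sets, and the smallest adjusted p was 0.894. Since nothing on the array passed, the count of 0 does not show that the pumps were steady. At an unadjusted p under 0.05 there were 3 of the 16 and 337 of the 10718. The 3 were 1418453_a_at and 1439036_a_at of Atp1b1 and 1452969_at of Atp2b1. Exactly equal values in at least 2 samples, which 5 of the 21 pump probe sets and 24009 of all 45101 had, lower an SD. Among the 5 were 1451152_a_at of Atp1b1 and 1452363_a_at of Atp2a2, both above background.

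**Figure D4:**
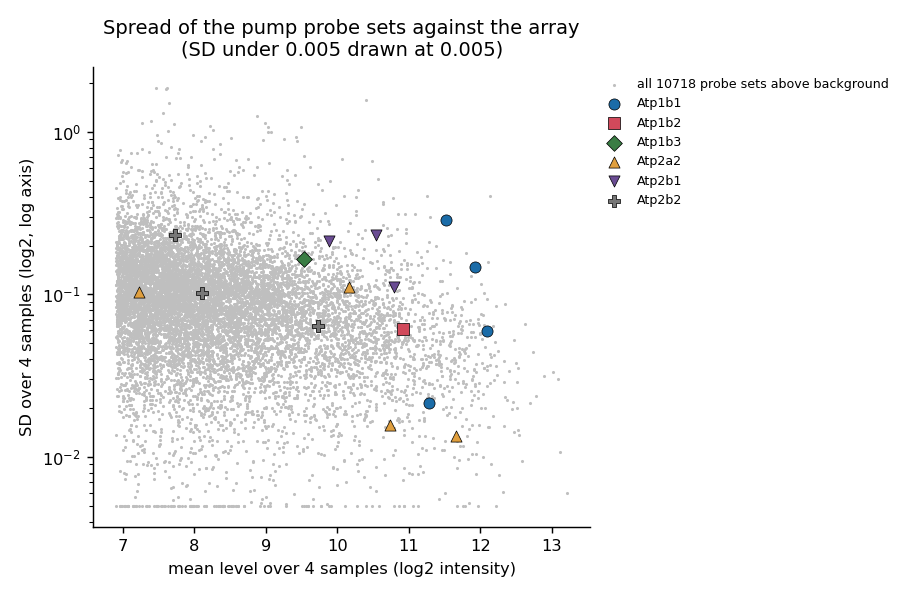
SD over the 4 samples (log2, on a log axis) against mean level (log2 intensity) for the 10718 probe sets above background in grey and the 16 pump probe sets among them in colour. Probe sets of 1 gene lie far apart: those of Atp1b1 run from an SD of 0.021 to 0.29 and those of Atp2a2 from 0.013 to 0.11.

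The probe sets of a gene were next compared for a shared pattern over the samples. For 4 pumps with at least 2 probe sets above background, the variance shared by the probe sets was set against their disagreement, with limma's squeezed variances. None of the 4 passed at an adjusted p of 0.05, against 2.26% of 1988 genes. Atp2b1 came closest, with a shared SD of 0.17 and an adjusted p of 0.0886 over all genes by this limma test. The adjusted p was 0.204 for Atp1b1, 0.245 for Atp2a2 and 0.36 for Atp2b2 by the same test. At an unadjusted p under 0.05 there were 2 of the 4, Atp2b1 and Atp1b1, and 440 of the 1988 genes. Over all settings tried, the adjusted p of Atp2b1 ran from 0.0816 with the 99th percentile as background to 0.45 without samples 15 and 17. Without sample 17 alone it was 0.359. A p that misses the threshold does not show that the samples were alike.

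Partners and relatives of the pumps gave no call for spread either, as was so for every probe set tested. Of the 18 listed genes of the sodium-potassium pump, 14 were measured and 6 were above background. Atp1a4 and Atp1b4, an alpha subunit of testis and a beta-like protein of muscle, were under background at 4.10 ± 0.058 and 2.80 ± 0.15. Among the 6, the largest SDs belonged to Fxyd1, a regulator of the pump, at 8.75, 8.73, 9.05 and 9.12 in samples 11, 13, 15 and 17, to Nkain2 at 7.53, 7.45, 7.65 and 7.80, and to Nkain1 at 8.25, 8.52, 8.47 and 8.39. Nkain proteins bind the beta subunit. Fxyd1 and Nkain2 were thus higher in samples 15 and 17, opposite to Atp1b3. Of all genes above background, 33.2% had both samples 15 and 17 above both samples 11 and 13, so this direction was common.

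Of 9 calcium pump genes and partners, all measured, 4 were above background. Atp2a1 and Atp2a3, the other reticulum pumps, were under it at 4.13 ± 0.19 and 6.32 ± 0.043. Atp2b3, another plasma membrane pump, stood at 10.19, 10.18, 10.23 and 10.33 in samples 11, 13, 15 and 17, and Atp2c1 of the Golgi at 8.90, 8.86, 8.88 and 8.90. Basigin (Bsg), a membrane glycoprotein that accompanies plasma membrane calcium pumps, was level at 11.17 to 11.20 in samples 11, 13 and 15 and lower in sample 17 at 10.98. Bsg and Atp2b1 were both lowest in sample 17, while Atp2b3 was highest there. Nptn, also on this list and above background, was not low in sample 17. It read 10.85 in samples 11, 15 and 17 and 10.82 in sample 13.

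Sodium-calcium exchangers, the other route by which neurons expel calcium, were above background for 4 of 7 measured genes of 8 listed. Slc8a1 spread most, at 8.25, 7.95, 8.17 and 7.68 in samples 11, 13, 15 and 17. Slc8a2 was under background at 5.90 ± 0.033, Slc8a3 stood at 7.05 ± 0.018 and Slc24a3 at 10.56 ± 0.081. Of 12 listed genes of store release and refilling, 11 were measured and 8 were above background. Itpr2 and Itpr3, receptors that release stored calcium, were under it at 5.91 ± 0.024 and 5.24 ± 0.036. The largest SDs were those of Ryr1, a release channel, at 7.37, 6.91, 7.04 and 7.38, Orai3, a calcium entry channel, at 7.21, 7.63, 7.66 and 7.47, and Ryr3 at 8.16, 7.96, 8.32 and 8.21 in samples 11, 13, 15 and 17. In these 4 lists together 0 of 22 genes above background passed for spread with limma, against 0% of 10718 probe sets. The count of 0 therefore does not show that these genes were steady. None of the 22 had both samples 15 and 17 below both samples 11 and 13, against 7.29% of all genes above background, and 8 had both above, against 33.2%, which is close to the share of the 22. By the test of agreement 1 of the 3 tested passed, against 2.26% of all genes: the reticulum chaperone Calr, with an adjusted p of 0.0351 by limma's squeezed variances. With 1 sample left out, no such fit kept this call, and the adjusted p of Calr ran from 0.0844 without sample 17 to 0.238 without sample 11. It was also 0.0564 after quantile normalization again, within a range of 0.0144 to 0.241 over all settings.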

How the data were processed

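Total RNA of 4 left hippocampi was DNase-treated, amplified and labelled with biotin, per the labels' protocols. The authors deposited RMA-normalized log2 intensities, as the submitters' processing notes name RMA; its software and version are not stated in the sources used here. The labels call the samples biological replicates, with no animal identifiers; the spread between them holds technical differences too. Column medians lay between 4.67 and 4.71, and the number of arrays limits the precision.

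The probe table gave 1 symbol for 34958 probe sets, several for 932 and none for 9211, and symbols were updated through RefSeq (GRCm38.p6), which held 34754 of them. A gene's main probe set is the one with the highest mean. The background list held 30 genes, of which 27 were measured. Spread was tested with limma (intercept fit, trended robust prior, residual over prior variance as F with 3 and 2.30 degrees of freedom); agreement of probe sets was tested as F over squeezed variances. Both were adjusted by Benjamini-Hochberg over all features and tested on simulated data. The simulated noise was independent between values and had the same SD for all probe sets, apart from planted effects. That setting is simpler than these arrays, so it does not show how the tests behave on them. The members, lists and tests were chosen with earlier results of these data known. Named were all members. From each pathway list came the first 2 measured genes and the 3 above background with the largest SD. The 3 genes most like the most variable main probe set were also named. Calr and Nptn were named after their values were seen. Alternatives covered background limit, filter, normalization, threshold, prior, choice of probe set and samples left out. Tests ran in limma 3.58.1 under R 4.3.3, and figures were drawn with matplotlib 3.10.9 under Python 3.11.15.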

Additional observations from a re-analysis of the deposited data

Results flagged for a closer look

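Among 61 values followed over the 4 samples, 8 had 1 sample far from the others: the gap to the nearest value, divided by the whole range, exceeded Dixon's 95% critical value. Chance marks about 1 group in 20. For the pumps these were Atp2b1 by 1428936_at, where sample 17 was low at 9.57 against a nearest 9.99 (ratio 0.967), and Atp1b1 by 1451152_a_at, where sample 15 was low at 11.25 against 11.29 (ratio 0.905). Of the other genes, Bsg was low in sample 17 at 10.98 against 11.17 (ratio 0.882). Equal values in the other 3 samples gave a ratio of 1 for Atp1a4 (sample 17, 4.19 against 4.07), Atp2a3 (sample 15, 6.38 against 6.30), Slc8a3 (sample 13, 7.08 against 7.04), Itpr3 (sample 15, 5.29 against 5.22) and the 3' minus 5' difference of the transferrin receptor (sample 11, 0.28 against 0.21).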

How the results depend on the processing

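The count of pump probe sets above background was 15 to 16 over its 8 alternatives, and the counts of 0 for spread, in pumps and over the whole array, were 0 in all 11 each. Agreement of probe sets called no pump, except 1 at an adjusted p of 0.1 (Atp2b1). Over the whole array it called 45 genes, 89 after median centring, 13 without the filter on dim probe sets, 162 at an adjusted p of 0.1, 13 without samples 15 and 17, and 2 to 9 with 1 sample left out. The count of 10 pump probe sets low in samples 15 and 17 became 8 to 12 over 6 alternatives chosen after seeing the data. The range of Atp1b2 minus Atp1b1 was 0.18, and 0.11 to 0.18 with 1 sample left out. It was 0.25 with the mean over probe sets. The range of the neuronal markers was 0.058, became 0.097 after median centring and was 0.027 to 0.058 with 1 sample left out; that of the astrocyte markers was 0.125, and 0.065 to 0.125; that of the myelin markers was 0.598, and 0.128 (without sample 13) to 0.610. With the mean over probe sets the ranges became 0.22 for Atp1b1, 0.12 for Atp2a2, 0.40 for Atp2b1 and 0.23 for Atp2b2; Atp2b4, with no probe set above background, gave no such value. No paired analysis was possible because there is 1 group.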
